A study of Mus musculus with 12 samples.

Results

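The transcripts described here are 10 markers of reactive astrocytes, measured in the hippocampus of epileptic mice that received saline or LPS, that is lipopolysaccharide from the envelope of Gram-negative bacteria. The genes are Gfap, Vim, Cd44, S1pr3, Steap4, Aspg, Emp1, S100a10, Srgn and Cd109, and every transcript probe that carries 1 of these names in the array files was taken. These were 20 of the 41174 transcript probes on the array. A probe was kept when each of the 3 arrays of 1 group or more read it well above background. This kept 17 of the 20 probes, with at least 1 for each of the 10 genes, among 27682 probes of all genes. The 3 probes left out, A_52_P287532 of Vim, A_51_P407053 of Cd44 and A_52_P134052 of Cd109, were well above background on 0 of 12 arrays. Each probe is reported apart, because probes of Gfap do not move together.

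All 12 mice were male C57BL/6N animals of 12 weeks whose left dorsal hippocampus had been injected with kainate (50 nl, 20 mM), which activates glutamate receptors. With recurrent seizures established 3 weeks later, they were given saline or 100 µg/kg LPS once by the intraperitoneal route, and hippocampus was taken at 4 h or 24 h. The groups are saline 4 h, LPS 4 h, saline 24 h and LPS 24 h, with 3 animals each per the labels, so kainate and seizures are common to the controls as well. No mice without kainate were analysed here, and the labels do not say from which side the tissue came. Since the separate origin of the animals rests on the labels, p-values measure the spread between these samples.

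Astrocytes respond to injury, seizures and inflammation with a change of state called reactivity, in which they build more intermediate filaments and secrete acute phase proteins, cytokines and complement factors. Gfap and Vim are filament proteins, and Gfap is the protein most often stained to show reactive astrocytes. Marker lists from mice separate genes shared by many forms of reactivity (here Gfap, Vim, Cd44, S1pr3, Steap4 and Aspg) from genes found after systemic LPS (here Srgn) or after ischaemia (here Emp1, S100a10 and Cd109). Cd44, Srgn and Vim are also made by microglia, leukocytes or vessel cells, so that these RNAs in whole tissue are not specific to astrocytes.

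The 3 probes of Gfap read different stretches of its transcripts, and they are shown first because their values differ. All lie on the minus strand of chromosome 11 in mm9, the mouse build the files use. In the array's annotation A_52_P52303 (chr11:102751813-102751872) belongs to transcript variant 1 and A_52_P540991 to transcript variant 2. A_52_P540991 is 60 bases long but spans chr11:102750787-102753236, an interval that contains the position of A_52_P52303. A_51_P395056 (chr11:102748916-102748976) carries the annotation of an older Gfap mRNA and is printed at 10 spots on each array. The first 30 of the 60 bases of the 2 probes that moved in opposite directions at 4 h are given 5′ to 3′ without capitals, since no motif is marked.
A_51_P395056: tgctctatgcatatacgtaatgtcacctat
A_52_P52303: ggttatattaacagagctagcctatgctaa
No run longer than 6 bases is common to any pair of the 3 full probe sequences.

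Values below are log2 intensities relative to the array's own 75th percentile, so that 0 stands for a probe as bright as that percentile and 1 unit for a doubling of intensity. That percentile was an intensity of 385 ± 12.6 (SD, n = 3) for saline 4 h and 702 ± 35.3 for LPS 4 h. For saline 24 h it was 798 ± 61.4 and for LPS 24 h 863 ± 124. The saline 4 h arrays were thus the dimmest, with 54.6% to 55.7% of transcript probes well above background against 69.8% to 71.7% in LPS 24 h. All 4 h arrays were scanned on one day and all 24 h arrays on another, so time and scan day cannot be told apart. Each of the 6 slides held 1 saline and 1 LPS array of the same time. Arrays of 1 group had a median SD per probe of 0.06 to 0.07. Whole tissue was measured, in which fewer cells of a type and less RNA per cell cannot be told apart. The number of arrays, 3 per group, limits the precision of every value. The hippocampal neuron markers Prox1, Neurod6, Wfs1, Fibcd1, Dsp and Bok were well above background in all groups.

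The first comparison asked how the markers differed from saline 4 h after LPS. Gfap gave a higher, a lower and an uncalled value on its 3 probes, Vim was lower, Cd44, Srgn and Steap4 were higher, and Aspg, Emp1 and S100a10 had a probe that was lower. Of the 17 probes 6 were higher and 5 lower at an adjusted p under 0.05 (limma, Benjamini-Hochberg over all 27682 probes), and 6 passed in neither direction. Of all probes 71.0% were called at 4 h, 31.6% higher and 39.4% lower, so the members' shares lay near the background. Both Steap4 probes passed the filter through the LPS arrays alone and therefore had to differ. Among the 15 probes well above background on all 12 arrays 4 were higher and 5 lower, with a median difference of -0.14 against -0.08 over all probes. The 21418 probes of all genes that met this condition had a median of -0.13. The saline and LPS arrays did not overlap for 7 higher and 9 lower probes of the 17, where 32.9% and 41.6% of all probes were apart in these directions.

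At 24 h the direction was common to the set. Of the 17 probes 15 were higher after LPS, 0 were lower and 2 passed in neither direction, while 20.8% of all probes were higher and 20.9% lower, 41.7% in all. Within the 15 probes measured on every array, 13 were higher and 0 lower, with a median of 0.74 against 0.00 over all probes. Over the 21418 probes of all genes measured on every array the median was -0.02. The 15 called probes were also those whose 3 LPS arrays all lay above the 3 saline arrays, as did 27.6% of all probes. The first exception was Gfap A_51_P395056 and the other was S100a10, both with overlapping arrays.

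**Figure D1:**
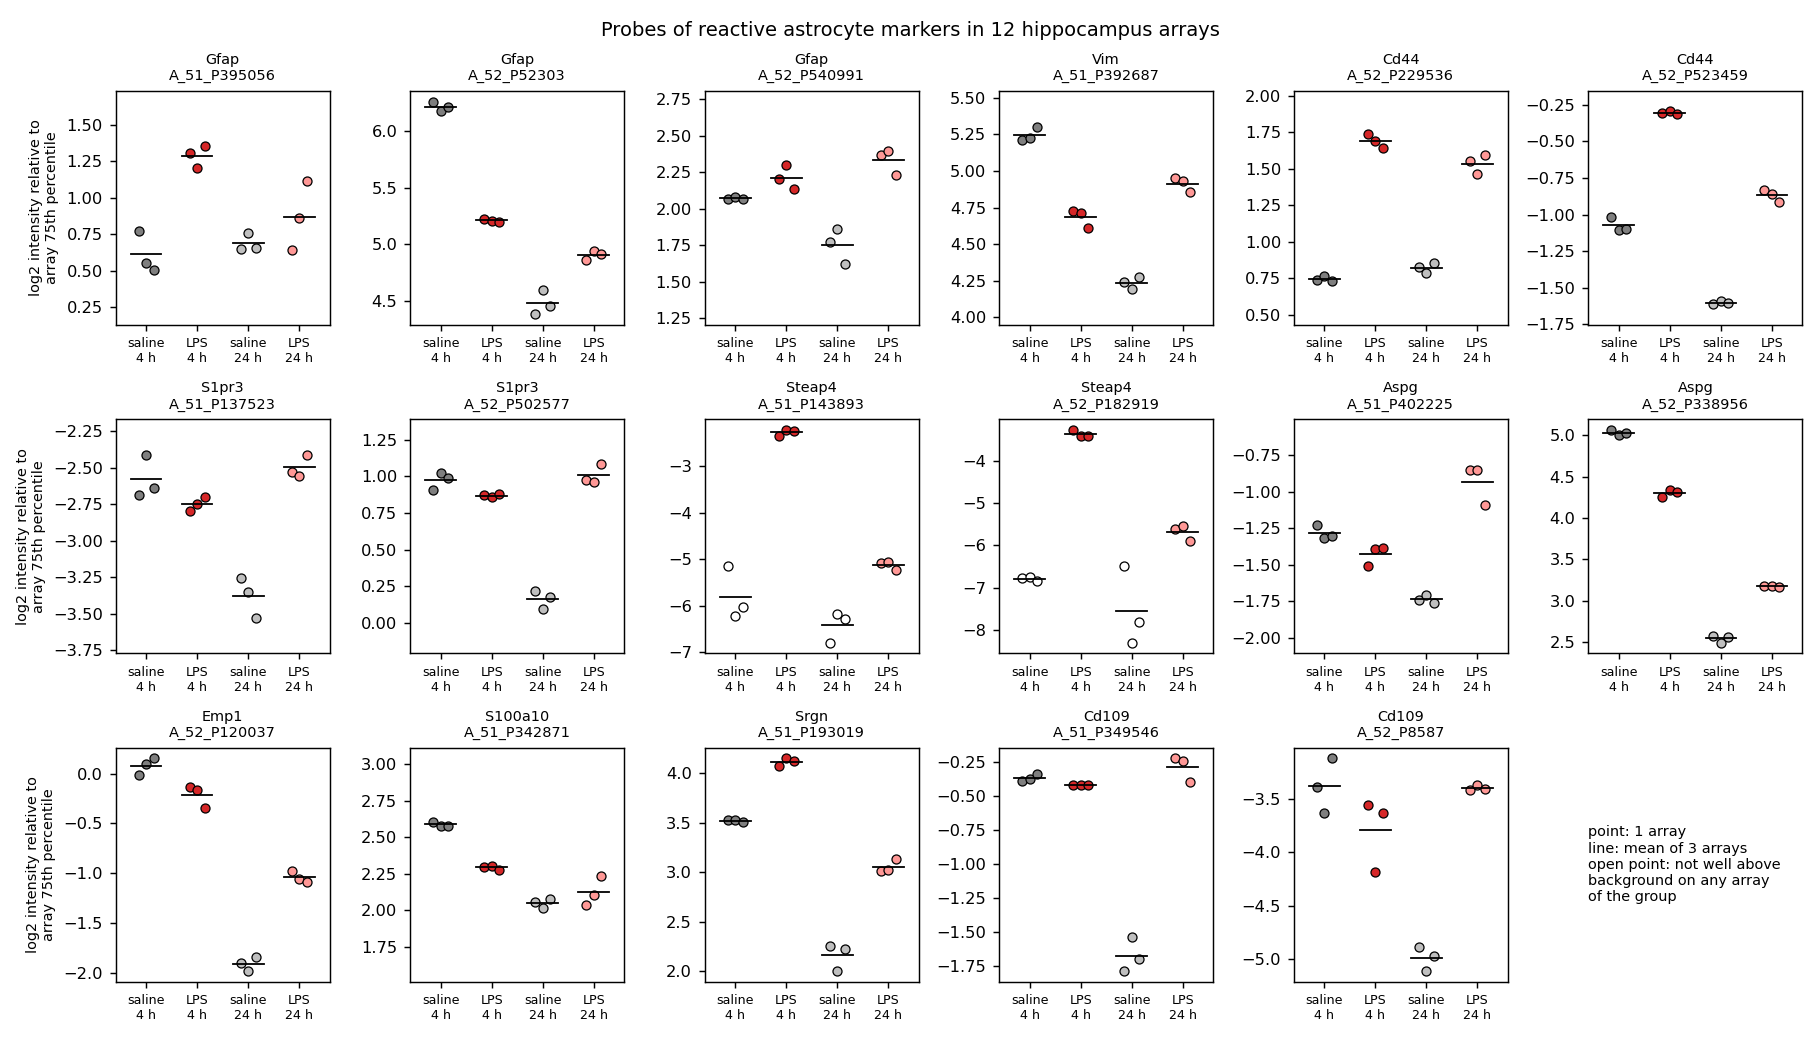
Log2 intensity relative to the array's 75th percentile (y axis) of the 17 probes in the 12 arrays, with 1 point per array, a line at the mean of the 3 arrays and open points where no array of the group read the probe well above background. Saline 24 h has the lowest mean for 13 of the 15 probes well above background on all 12 arrays. No share over all probes is given for this order.

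Among the filament proteins, Gfap A_52_P52303 read 6.26, 6.17 and 6.21 on the saline 4 h arrays and 5.23, 5.21 and 5.20 on the LPS 4 h arrays. The groups were far apart, and the probe fell by 1.00 ± 0.05 (SE; adjusted p = 8.29e-08, limma), a fold of 2.00. The size depended on the scaling, at -0.53 under quantile normalization and -0.57 in the deposited matrix (adjusted p = 1.51e-05 and 3.26e-07, limma). Within the 3 slides the difference was -1.06 to -0.94. Of all probes 3.98% had a lower value.

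Gfap A_51_P395056 moved the other way at the same time. It read 0.77, 0.56 and 0.51 in saline 4 h and 1.31, 1.20 and 1.35 in LPS 4 h, and rose by 0.68 ± 0.11 (adjusted p = 0.000357, limma). Every LPS array lay above every saline array, with 0.58 to 0.75 within slides. The 10 repeated spots of this probe had an SD of 0.04 to 0.08 on 1 array, which is smaller than the difference.

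Gfap A_52_P540991 read 2.07, 2.08 and 2.07 in saline 4 h and 2.20, 2.30 and 2.14 in LPS 4 h. The arrays did not overlap, but the difference of 0.14 ± 0.07 missed the threshold (adjusted p = 0.0915, limma). With the slide as a block it passed, at an adjusted p of 0.0276. The mean of the 3 Gfap probes differed by -0.06 (adjusted p = 0.31, limma), so a single value for Gfap at 4 h depends on the probe chosen.

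The unequal change was tested as a log2 ratio of 2 probes within each array. A_52_P52303 over A_51_P395056 was 5.49 to 5.70 in saline 4 h and 3.84 to 4.01 in LPS 4 h, and fell by 1.68 ± 0.10 (adjusted p = 5.68e-07, limma over 9489 pairs of probes). A_52_P52303 over A_52_P540991 was 4.09 to 4.19 in saline 4 h and 2.91 to 3.06 in LPS 4 h, and fell by 1.14 ± 0.08 (adjusted p = 9.42e-07, limma). In both ratios the saline 4 h arrays stood above all other arrays: the first was 3.73 to 3.85 in saline 24 h and 3.80 to 4.23 in LPS 24 h, and the second 2.61 to 2.83 and 2.50 to 2.69. Unequal probe pairs were common at 4 h, at 52.2% of all pairs.

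Of the 7 pairs of member probes 4 were unequal at 4 h. Besides the 2 pairs of Gfap these were Aspg, with a ratio that changed by -0.59 ± 0.07 (adjusted p = 5.46e-05, limma), and Cd44, with 0.17 ± 0.06 (adjusted p = 0.0337, limma). At 24 h 0 of 7 pairs were unequal, against 10.4% of all pairs, and the Gfap ratios differed by 0.24 ± 0.10 and -0.15 ± 0.08 (adjusted p = 0.162 and 0.227, limma). The ratios say only that probes of a gene changed unequally, not which of them follows the gene.

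At 24 h A_52_P540991 of Gfap read 1.77, 1.86 and 1.62 in saline and 2.37, 2.39 and 2.23 in LPS. It rose by 0.58 ± 0.07 (adjusted p = 0.000118, limma), with all LPS arrays above all saline arrays. A_52_P52303 read 4.39, 4.60 and 4.45 in saline and 4.87, 4.94 and 4.92 in LPS. It rose by 0.43 ± 0.05 (adjusted p = 0.00015, limma), so here its direction was that of A_52_P540991.

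A_51_P395056 read 0.65, 0.76 and 0.66 in saline 24 h and 0.64, 0.86 and 1.12 in LPS 24 h. The groups overlapped and the difference of 0.18 ± 0.11 was not called (adjusted p = 0.225, limma). Its replicate 1 of LPS 24 h lay lowest, and without that array the difference was 0.30 (adjusted p = 0.0432, limma). Without replicate 3, which lay highest, it was 0.063 (adjusted p = 0.647, limma).

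Vimentin, Vim, the other filament protein, read 5.21, 5.23 and 5.30 in saline 4 h and 4.73, 4.71 and 4.61 in LPS 4 h on A_51_P392687 (chr2:13504232-13504291, plus strand). It fell by 0.57 ± 0.05 at 4 h (adjusted p = 1.59e-06, limma), and the groups did not overlap. Under quantile normalization the fall was smaller, at -0.17 (adjusted p = 0.00697, limma), as in the deposited matrix, at -0.19 (adjusted p = 0.0236, limma). At 24 h it read 4.24, 4.19 and 4.28 in saline and 4.95, 4.93 and 4.86 in LPS, a rise of 0.68 ± 0.05 (adjusted p = 2.51e-06, limma). The signs were opposite at the 2 times, and within slides the differences were -0.61 to -0.50 and 0.58 to 0.74.

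Cd44, the surface receptor for hyaluronan, was higher at both times on both measured probes. A_52_P229536 (chr2:102652907-102652966, minus strand) read 0.74, 0.77 and 0.73 in saline 4 h and 1.74, 1.69 and 1.64 in LPS 4 h. It read 0.83, 0.79 and 0.85 in saline 24 h and 1.55, 1.46 and 1.59 in LPS 24 h. The saline groups lay close together and the LPS arrays stood clear of them, with rises of 0.94 ± 0.04 at 4 h (adjusted p = 2.04e-08, limma) and 0.71 ± 0.04 at 24 h (adjusted p = 7.48e-07, limma). A_52_P523459, printed at 10 spots per array, rose by 0.77 ± 0.03 and 0.74 ± 0.03 (adjusted p = 2.34e-08 and 1.77e-07, limma), the second being 0.47 in the deposited matrix (adjusted p = 0.000182, limma).

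S1pr3, a receptor for sphingosine 1-phosphate, was called at 24 h and not at 4 h. A_52_P502577 (chr13:51517079-51517138, plus strand) read 0.91, 1.02 and 0.99 in saline 4 h and 0.87, 0.86 and 0.88 in LPS 4 h. The LPS arrays lay just below the saline arrays, at -0.10 ± 0.05 (adjusted p = 0.0728, limma), and without replicate 1 of saline 4 h this passed, at -0.14 (adjusted p = 0.0352, limma). At 24 h the probe read 0.22, 0.09 and 0.18 in saline and 0.98, 0.96 and 1.09 in LPS and rose by 0.84 ± 0.05 (adjusted p = 7.38e-07, limma). The dimmer probe A_51_P137523 gave -0.17 ± 0.08 (adjusted p = 0.0995, limma) and 0.88 ± 0.08 (adjusted p = 3.07e-05, limma). The latter was 0.54 with normexp and 0.44 in the deposited matrix (adjusted p = 0.0174 and 2.28e-05, limma). At 4 h median scaling called both probes lower, at -0.27 on A_52_P502577 and -0.34 on A_51_P137523 (adjusted p = 0.000279 and 0.0018, limma). A_51_P137523 was also called with quantile normalization, at -0.29, and in the deposited matrix, at -0.21 (adjusted p = 0.00694 and 0.00324, limma). With normexp neither was called.

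Emp1, a membrane protein with several transmembrane segments, read -0.01, 0.09 and 0.15 in saline 4 h and -0.14, -0.16 and -0.34 in LPS 4 h on A_52_P120037 (chr6:135332885-135332944, plus strand). It fell by 0.29 ± 0.07 at 4 h (adjusted p = 0.00258, limma), with no overlap of the groups, and stood at -0.46 with median scaling and at -0.27 with normexp (adjusted p = 0.000113 and 0.0709, limma). At 24 h it read -1.89, -1.98 and -1.84 in saline and -0.98, -1.06 and -1.08 in LPS, a rise of 0.87 ± 0.07 (adjusted p = 5.98e-06, limma). LPS 24 h lay above its own saline group but below both groups of 4 h.

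Cd109, a membrane-anchored protein that binds transforming growth factor beta, had the largest rises at 24 h among the probes measured on all 12 arrays. A_51_P349546 (chr9:78563020-78563079, plus strand) read -1.78, -1.54 and -1.70 in saline 24 h and -0.23, -0.24 and -0.40 in LPS 24 h. It rose by 1.38 ± 0.06 (adjusted p = 1.92e-07, limma), more than 98.7% of all probes. A_52_P8587 rose by 1.59 ± 0.17 (adjusted p = 5.53e-05, limma), also without overlap, but by 0.49 in the deposited matrix (adjusted p = 0.000242, limma) and by an uncalled 0.63 with normexp (adjusted p = 0.0561, limma).

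At 4 h A_51_P349546 of Cd109 read -0.39, -0.37 and -0.34 in saline and -0.42 on each of the 3 LPS arrays. That difference of -0.05 ± 0.06 was not called (adjusted p = 0.477, limma), although the arrays did not overlap. A_52_P8587 was more scattered, with -3.39, -3.63 and -3.13 in saline 4 h against -3.56, -4.18 and -3.63 in LPS 4 h, which overlap. Its difference of -0.41 ± 0.17 lay just past the threshold (adjusted p = 0.0505, limma). It was called without replicate 2 of saline 4 h, at -0.53 (adjusted p = 0.022), without replicate 1 of LPS 4 h, at -0.53 (adjusted p = 0.0256), and without replicate 3 of LPS 4 h, at -0.49 (adjusted p = 0.0453). Without replicate 2 of LPS 4 h it was -0.21 (adjusted p = 0.168) and without replicate 3 of saline 4 h -0.28 (adjusted p = 0.177), so single arrays move it either way.

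Steap4, a reductase of iron and copper ions, was well above background on 0 of 6 saline arrays and on all 6 LPS arrays. A_51_P143893 (chr5:7981239-7981298, plus strand) read -2.35, -2.23 and -2.25 in LPS 4 h, against measured values of -5.15, -6.23 and -6.04 in saline 4 h that count as below background. It was therefore at least 5.49-fold higher at 4 h (adjusted p = 7.4e-07, limma). Because the filter admitted both Steap4 probes through their LPS arrays, their p-values describe the fit and are no support for a difference. At 24 h it read -5.08, -5.07 and -5.24 in LPS and was at least 1.95-fold higher than saline (adjusted p = 0.00264, limma). These bounds compare the mean of the LPS arrays with, on each saline array, the lowest signal called well above background or the probe's own signal where that was higher.

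The other Steap4 probe, A_52_P182919, was at least 2.59-fold higher at 4 h and at least 1.38-fold higher at 24 h (adjusted p = 1.25e-05 and 0.00249, limma). Both probes were brighter in all 3 arrays of LPS 4 h than in all 3 of LPS 24 h. The sizes depended on how low signals were treated. At 4 h the differences were 0.91 and 0.54 with normexp and 1.29 and 0.90 in the deposited matrix, both smaller than the bounds above. With normexp background correction the 24 h difference was 0.21 on A_51_P143893 and 0.16 on A_52_P182919, and neither was called (adjusted p = 0.378 and 0.707, limma).

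Aspg, an asparaginase, read 5.06, 5.0 and 5.03 in saline 4 h and 4.25, 4.34 and 4.31 in LPS 4 h on its brighter probe A_52_P338956 (chr12:113365695-113365754, plus strand). It fell by 0.73 ± 0.03 at 4 h (adjusted p = 3.81e-08, limma), or by less with quantile normalization, at -0.36, and in the deposited matrix, at -0.34 (adjusted p = 5.67e-06 and 1.26e-05, limma). At 24 h the probe read 2.58, 2.50 and 2.57 in saline and 3.18, 3.18 and 3.17 in LPS, a rise of 0.63 ± 0.03 (adjusted p = 5.58e-07, limma). All 24 h arrays of either treatment lay below all 4 h arrays. A_51_P402225 gave -0.14 ± 0.07 at 4 h (adjusted p = 0.0779, limma) and rose by 0.81 ± 0.07 at 24 h (adjusted p = 1.07e-05, limma). Its 4 h value was called with quantile normalization, at -0.22, and with median scaling, at -0.31 (adjusted p = 0.0174 and 0.00335, limma). It was also called in the deposited matrix, at -0.17 (adjusted p = 0.0371, limma), but not with normexp.

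S100a10, the partner of annexin A2, read 2.60, 2.58 and 2.58 in saline 4 h and 2.30, 2.30 and 2.28 in LPS 4 h on A_51_P342871 (chr3:93368437-93368496, plus strand). It fell by 0.29 ± 0.05 (adjusted p = 0.000234, limma), but the call was lost under quantile normalization, at -0.10 (adjusted p = 0.109), and in the deposited matrix, at -0.09 (adjusted p = 0.182), while median scaling gave -0.46 (adjusted p = 2.04e-05). At 24 h it read 2.06, 2.02 and 2.08 in saline and 2.03, 2.11 and 2.23 in LPS. The groups overlapped, with a difference of 0.07 ± 0.05 (adjusted p = 0.236, limma) and -0.02 to 0.15 within slides.

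Srgn, the core protein of the proteoglycan serglycin, read 3.53, 3.52 and 3.51 in saline 4 h and 4.08, 4.15 and 4.12 in LPS 4 h on A_51_P193019 (chr10:61957219-61957278, minus strand). At 24 h it read 2.25, 2.00 and 2.22 in saline and 3.01, 3.02 and 3.13 in LPS. It rose by 0.59 ± 0.06 at 4 h (adjusted p = 1.31e-05, limma) and by 0.90 ± 0.06 at 24 h (adjusted p = 3.47e-06, limma), without overlap at either time. Like Cd44 it was called higher at both times on every probe measured on all 12 arrays.

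**Figure D2:**
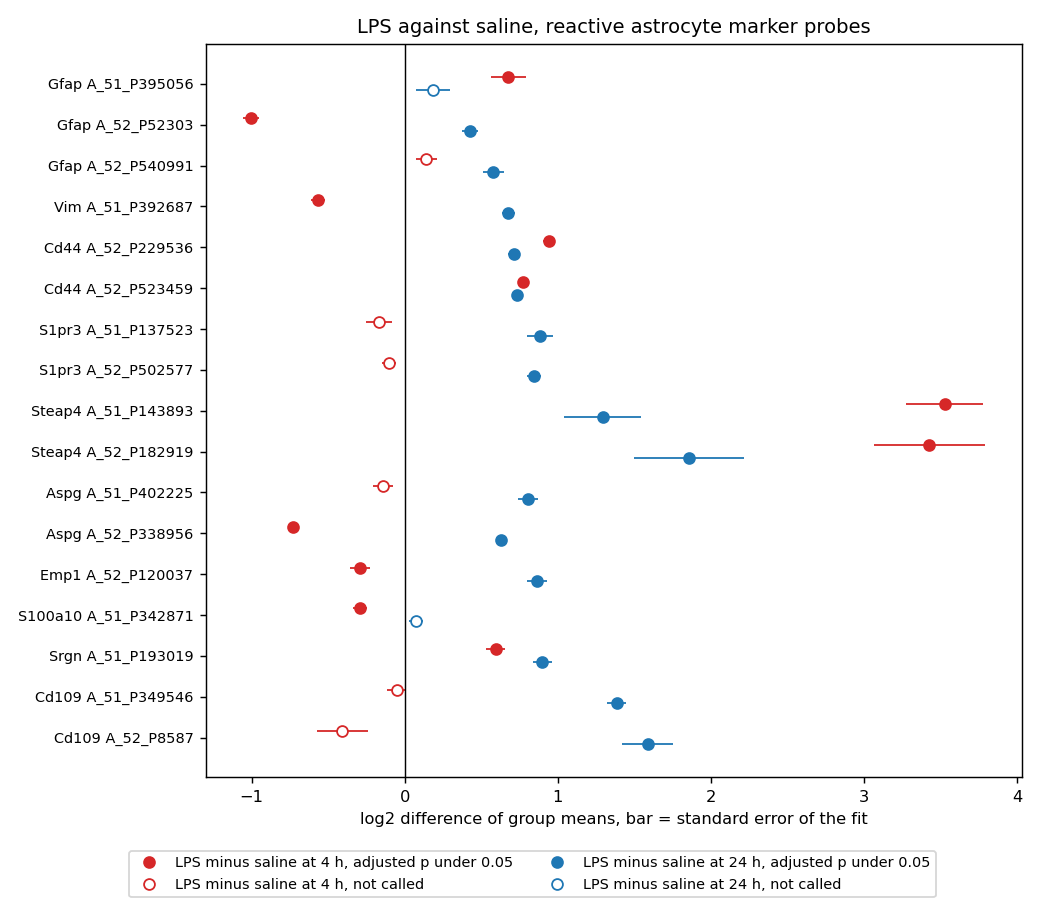
Log2 difference of LPS minus saline (x axis) for each of the 17 probes at 4 h (red) and 24 h (blue), with the standard error of the fit as a bar and open points for an adjusted p not under 0.05. At 24 h 15 points are filled and to the right of 0, while at 4 h 6 are filled to the right and 5 to the left; the Steap4 points rest on saline signals below background and are not bounds.

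The difference between the LPS responses was tested directly, each taken within its own scan day. It was higher at 24 h than at 4 h for 12 of 17 probes and lower for 4, against 37.6% and 28.3% of all probes (65.9% in all). Among the 15 probes measured on all 12 arrays it was higher for 12 and lower for 2. Of the 21418 probes of all genes measured on every array, 9708 were higher and 6584 lower. Cd109 A_52_P8587 differed by 1.99 ± 0.24, Gfap A_52_P52303 by 1.43 ± 0.07, Aspg A_52_P338956 by 1.36 ± 0.05 and Vim by 1.24 ± 0.06 (adjusted p = 4.07e-05, 1.35e-07, 1.35e-08 and 1.27e-07, limma). The lower ones were Gfap A_51_P395056, Cd44 A_52_P229536 and both Steap4 probes. Those of Steap4 rest on saline signals below background at both times. Cd44 A_52_P523459 was the 1 probe not called, with -0.03 ± 0.05 by the fit (adjusted p = 0.554, limma).

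The saline groups themselves differed for these genes. Of the 15 probes measured on all 12 arrays 13 were lower in saline 24 h than in saline 4 h and 0 were higher, where 41.5% of all probes were lower and 38.0% higher (79.5% in all). The median difference was -0.81 in these 15 probes and -0.02 over all probes. Of the 21418 probes of all genes likewise measured on all 12 arrays, 10892 were lower and 7696 higher, with a median of -0.16. As 24 h minus 4 h, Aspg A_52_P338956 stood at -2.49 ± 0.03, Emp1 at -1.98 ± 0.07 and Gfap A_52_P52303 at -1.73 ± 0.05 (adjusted p = 1.42e-11, 1.27e-09 and 7.12e-10, limma). Vim was at -1.01 ± 0.05, Srgn at -1.36 ± 0.06 and Cd109 A_51_P349546 at -1.30 ± 0.06 (adjusted p = 1.06e-08, 1.36e-08 and 2.05e-08, limma). The 2 probes not called were Gfap A_51_P395056 at 0.07 ± 0.11 and Cd44 A_52_P229536 at 0.08 ± 0.04 (adjusted p = 0.557 and 0.0962, limma). This comparison crosses scan days, so time after saline and scan day cannot be told apart.

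With the saline 24 h arrays as controls for LPS 4 h, all 17 probes were higher, where 35.5% of all probes were higher and 35.4% lower. Both Steap4 probes passed the filter through LPS arrays alone and had to be higher. The 15 probes measured on all 12 arrays were all higher as well. Gfap A_52_P52303 then stood at 0.73 ± 0.05 and Vim at 0.45 ± 0.05, whereas both were lower than their own controls (adjusted p = 8.09e-07 and 1.04e-05, limma). Emp1 turned from -0.29 to 1.69 ± 0.07, Aspg A_52_P338956 from -0.73 to 1.76 ± 0.03 and S100a10 from -0.29 to 0.24 ± 0.05 (adjusted p = 1.04e-08, 1.09e-10 and 0.000933, limma). The 5 probes that were lower at 4 h were thus lower against 1 saline group and higher against the other. With the saline 4 h arrays as controls for LPS 24 h, 6 probes were higher and 6 lower, where 39.9% and 40.0% of all probes were. Both Steap4 probes were among the higher ones, with saline 4 h signals below background. Of the 15 probes measured on all 12 arrays 4 were higher and 6 lower in this exchange. Cd44 A_52_P229536 kept 0.79 ± 0.04 there, while Gfap A_52_P52303 was at -1.31 ± 0.05 (adjusted p = 2.94e-08 and 5.56e-09, limma). Both exchanges cross scan days.

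**Figure D3:**
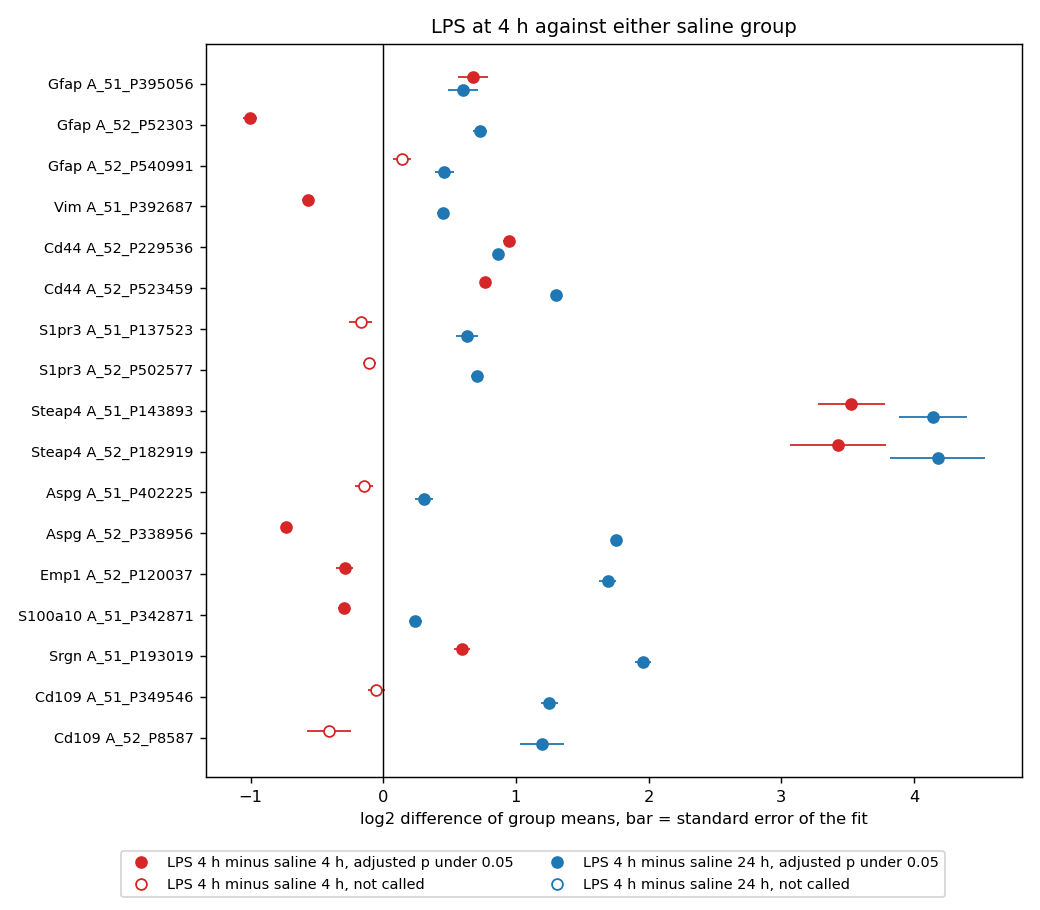
Log2 difference of LPS 4 h from saline 4 h (red) and from saline 24 h (blue) for the 17 probes, with the standard error of the fit as a bar and open points for an adjusted p not under 0.05. All 17 blue points are filled and to the right of 0, whereas 5 filled red points lie to the left, and the blue comparison crosses scan days. The Steap4 points rest on saline signals below background and had to lie to the right, since the filter admitted them through LPS arrays alone.

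Set in order, the means of the groups were lowest in saline 24 h for 13 of the 15 probes measured on all arrays. The highest mean was that of saline 4 h for 6 of the 15, of LPS 24 h for 5 and of LPS 4 h for 4. No share over all probes is given for these orders, so the counts describe the members alone. Saline 4 h stood highest for Gfap A_52_P52303, Vim, Aspg A_52_P338956, Emp1, S100a10 and Cd109 A_52_P8587, though for the last the mean of -3.38 was within the array spread of the -3.40 in LPS 24 h. LPS 4 h stood highest for Gfap A_51_P395056, both Cd44 probes and Srgn.

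The wider lists from which the members come were read by the brightest probe of each gene. Of the 13 pan-reactive genes 8 were higher and 3 lower at 4 h, and all 13 were higher at 24 h. By the same probe rule 29.1% of all genes were higher and 44.2% lower at 4 h, and 22.8% higher and 22.0% lower at 24 h. The 3 lower genes at 4 h were the members Gfap, Vim and Aspg. Steap4, counted as higher at both times, passed the filter through LPS arrays alone and had to be higher. Of the 7 genes of the list that are not members, 6 were higher at 4 h and 7 at 24 h, with medians of 1.33 and 1.44, where the medians of all genes were -0.15 and 0.00.

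Lcn2, the iron-carrier protein lipocalin 2, rose by 4.01 ± 0.14 at 4 h (adjusted p = 6.58e-09, limma), with 2 of 3 saline arrays above background. The chemokine Cxcl10 rose by 2.59 ± 0.05 at 4 h and 2.38 ± 0.05 at 24 h, and the copper-carrying ferroxidase Cp by 1.83 ± 0.04 and 1.41 ± 0.04 (adjusted p = 3.61e-10, 2.65e-09, 2.54e-10 and 4.42e-09, limma). The small heat shock protein Hspb1 rose by 1.33 ± 0.04 and 1.44 ± 0.04, and the protease inhibitor Serpina3n by 1.15 ± 0.03 at 24 h. Lcn2, Cxcl10, Cp, Hspb1 and Serpina3n were called higher at both times, whereas Gfap A_52_P52303, Vim and Aspg A_52_P338956 were lower at 4 h. Every rise or fall named from these lists had an adjusted p under 0.05 in limma.

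Of the list found after systemic LPS in mice 11 of 12 genes were measured, and 6 were higher and 3 lower at 4 h, while 10 were higher and 0 lower at 24 h. The GTPases Gbp2 and Iigp1, both induced by interferon, rose by 2.40 ± 0.03 and 2.03 ± 0.04 at 4 h and by 1.53 ± 0.03 and 1.66 ± 0.04 at 24 h. The chaperone partner Fkbp5, a target of the glucocorticoid receptor, rose by 1.90 ± 0.04 at 4 h, and Ggta1, a galactosyltransferase, by 0.56 ± 0.03. The class I histocompatibility gene H2-D1 and the matrix protein gene Fbln5 rose by 1.30 ± 0.03 and 1.75 ± 0.05 at 24 h but fell by 0.41 ± 0.03 and 0.65 ± 0.05 at 4 h. Srgn was the 1 member in this list.

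Of the 13 genes of the list found after ischaemia 8 were higher and 4 lower at 4 h, and 10 were higher and 0 lower at 24 h. Clcf1, 1 of the 4 lower genes, was below background in both groups of 4 h. Slc10a6, counted as higher at both times, passed the filter through LPS arrays alone and had to be higher. Cd14, the co-receptor for LPS, rose by 2.22 ± 0.04 at 4 h. Ptgs2, the inducible cyclooxygenase, rose by 2.37 ± 0.08 at 4 h, and the pentraxin Ptx3 by 1.81 ± 0.07 at 4 h and 1.41 ± 0.07 at 24 h. B3gnt5, a glycosyltransferase not above background in saline 4 h, was at least 1.59-fold higher at 4 h. At 24 h the transporter gene Slc10a6, not above background in saline, was at least 2.00-fold higher, and the transglutaminase Tgm1 and the kinase Sphk1 rose by 0.93 ± 0.04 and 0.63 ± 0.04. Against the saline arrays of the other time, 10 genes of the systemic LPS list were higher at 4 h in place of 6. The pan-reactive and ischaemia lists then each had 12 higher in place of 8. In all 3 lists 0 genes were lower, where 41.3% of all genes were higher. At 24 h 6 pan-reactive genes were then higher in place of 13, and 4 genes of each other list in place of 10, where 34.2% of all genes were higher. The lower genes at 24 h were then 5 in the pan-reactive list, 6 in the systemic LPS list and 7 in the ischaemia list, in place of 0.

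**Figure D4:**
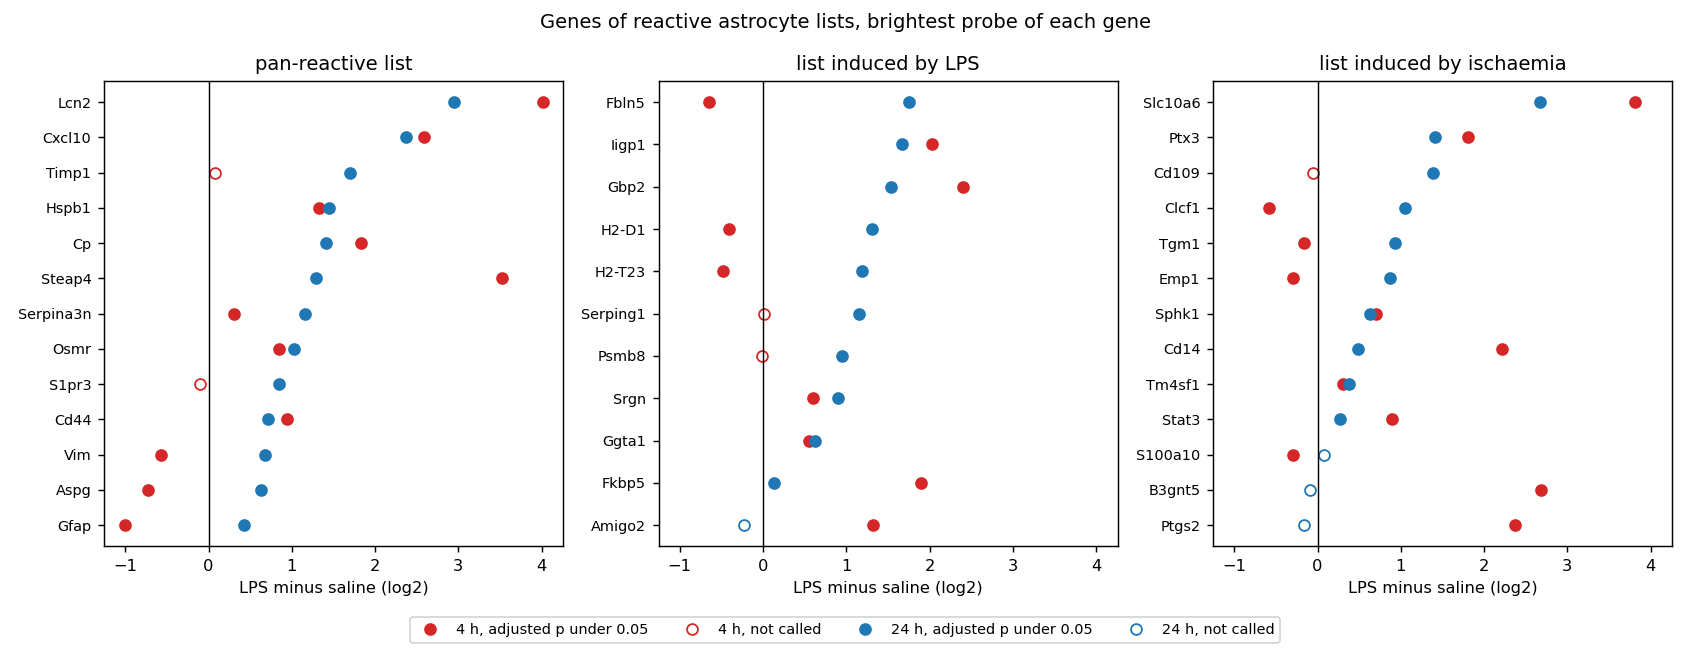
Log2 difference of LPS minus saline (x axis) for the genes of 3 reactive astrocyte lists, read by the brightest probe of each gene, at 4 h (red) and 24 h (blue), with open points for an adjusted p not under 0.05. All 13 pan-reactive genes are filled and right of 0 at 24 h. The 3 of them left of 0 and filled at 4 h are Vim, Aspg and Gfap. Gfap is drawn by A_52_P52303, while its probe A_51_P395056 was higher at 4 h. Points of Steap4, Slc10a6, Clcf1 and B3gnt5 rest in part on signals below background.

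General astrocyte markers, which do not define reactivity, had 6 of 12 higher and 5 lower at 4 h, against 29.1% and 44.2% of all genes. At 24 h they had 8 higher and 2 lower, against 22.8% and 22.0% of all genes. Their summed level, in multiples of the array's 75th percentile, was 663 to 675 for saline and 520 to 541 for LPS at 4 h, and 374 to 380 for saline and 410 to 416 for LPS at 24 h. Saline 24 h was the lowest here too, as for most member probes. In LPS 24 h the transporter gene Slc1a3 fell by 0.08 ± 0.03 and the gap junction gene Gja1 by 0.54 ± 0.06, whereas Aldh1l1 rose by 0.35 ± 0.03 (adjusted p = 0.0298, 0.000133 and 3.65e-05, limma).

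Markers of other cell types also differed between LPS and saline, in directions that were not the same for each cell type at 4 h. Of 10 microglial markers 2 were higher and 7 lower at 4 h and 9 were higher and 1 lower at 24 h. Their summed level was 426 to 448 for saline and 342 to 354 for LPS at 4 h, and 127 to 133 for saline and 187 to 191 for LPS at 24 h, and all 10 were well above background in each group. Of 8 endothelial markers 1 was higher and 7 lower at 4 h, and 7 were higher and 0 lower at 24 h, with sums of 49.9 to 50.7, 19.2 to 19.4, 25.4 to 26.8 and 32.1 to 34.9 for saline 4 h, LPS 4 h, saline 24 h and LPS 24 h. Of 7 neutrophil and monocyte markers 6 were higher and 0 lower at either time, with sums of 19.4 to 19.6, 24.5 to 25.4, 9.47 to 10.2 and 20.8 to 22.5. The granule genes Ngp, Mmp8 and Retnlg were not above background on any array of either saline group. They passed the filter through the LPS 4 h arrays alone, so they had to be higher at 4 h and are no support for a difference there. At 24 h Mmp8 was counted as higher although it was above background on 0 of 3 arrays in both groups. The part of these cells in the values of Vim, Cd44, Srgn and the other members was not tested.

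The markers of neurons and of other cells of the tissue gave the following counts. The shares of all genes were again 29.1% higher and 44.2% lower at 4 h, and 22.8% and 22.0% at 24 h. Neuronal markers had 3 of 6 genes higher and 0 lower at 4 h and 0 higher and 5 lower at 24 h, with sums of 101 to 102, 125 to 128, 152 to 156 and 123 to 127 in the same order of groups. Lymphocyte markers had 0 of 7 higher and 4 lower at 4 h and 3 higher and 0 lower at 24 h, and their sums stayed between 0.300 and 0.687. Cd4, 1 of the 4 lower ones, was below background in both groups of 4 h. Meningeal and fibroblast markers had 3 of 6 higher and 2 lower at 4 h and 1 higher and 2 lower at 24 h, with sums of 11.5 to 21.1 over all arrays. Choroid plexus markers had 2 of 5 higher and 3 lower at 4 h and 4 higher and 0 lower at 24 h, with sums of 30.7 to 46.1. Oligodendrocyte markers had 1 of 5 higher and 4 lower at 4 h and 0 higher and 1 lower at 24 h, with sums of 281 to 287 in saline 4 h, 227 to 233 in LPS 4 h, 158 to 160 in saline 24 h and 149 to 155 in LPS 24 h. Hippocampal neuron markers had 4 of 6 higher and 1 lower at 4 h and 1 higher and 4 lower at 24 h. Their sums were 142 to 145, 71.1 to 73.4, 49.7 to 50.8 and 51.8 to 53.7, so that the sum was lower in LPS 4 h than in saline 4 h although more markers were higher. Both lists had their highest sums in saline 4 h, as Gfap A_52_P52303 had its highest values there. All 5 oligodendrocyte markers were lower in saline 24 h than in saline 4 h. Of the 6 hippocampal neuron markers 4 were higher there and 1 lower, so their sum ran against most of them. The lower one was Bok, at -2.17 ± 0.03 (adjusted p = 1.98e-11, limma). Of all probes 38.0% were higher and 41.5% lower between the saline groups. The part of these lists in the members' values was not tested either.

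The genes whose levels ran most like the filament probes over the 12 arrays differed between the Gfap probes. The points share 4 groups, so Pearson's r describes the order of the groups above all and carries no p. A_51_P395056 was closest to the chemokine gene Ccl11 (r = 0.95), Ankrd44 (0.94), the LPS receptor Tlr4 (0.94) and Ambp (0.94). A_52_P52303 was closest to 2810025M15Rik (0.997), Mtarc2 (0.996), Cers4 (0.996) and Hbegf (0.995), of which Hbegf, a growth factor of the epidermal growth factor family, was at -0.81 at 4 h and 0.38 at 24 h. A_52_P540991 was close to Gpt (0.97), the interferon signalling factor Irf9 (0.97) and Grap (0.95). Vim was closest to BC028528 (0.99), Gtsf1l (0.99), Cfap126 (0.99) and Scgb3a1 (0.99). Among the members A_52_P52303 correlated at 0.87 with Vim and at -0.15 with A_51_P395056 of its own gene.

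Promoters were read because Gfap is a known target of STAT3, and because STAT3 and AP-1 are transcription factors active in reactive astrocytes. The RefSeq table on GRCm38.p6, a different build from that of the probes, gave 10 promoters for 8 of the 10 genes and no entry for S100a10 and Cd109. The 250 bases before each start were searched on both strands for TTCNNNGAA, the palindrome of STAT factors, and TGANTCA, the AP-1 motif. The first was held by 7.02% and the second by 6.75% of the 32851 mouse promoters listed there. Steap4 held 1 STAT match, which began 116 bases before its start, and the first of 2 Emp1 promoters held 2 STAT matches and 2 AP-1 matches, of which 1 pair overlaps. The promoters of Gfap, Vim, Cd44, S1pr3, Aspg and Srgn held none of these letters in the window. These windows are shown for Steap4, the member with the largest LPS difference at 4 h, and for Emp1, with matches in capitals. Steap4 lies at chr5:7960222-7960471 and Emp1 at chr6:135362681-135362930, both on the plus strand.
Steap4: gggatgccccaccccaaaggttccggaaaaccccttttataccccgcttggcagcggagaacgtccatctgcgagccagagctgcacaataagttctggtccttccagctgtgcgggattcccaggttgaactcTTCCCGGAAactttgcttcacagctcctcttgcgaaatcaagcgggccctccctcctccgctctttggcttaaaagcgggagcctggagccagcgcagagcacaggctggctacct
Emp1: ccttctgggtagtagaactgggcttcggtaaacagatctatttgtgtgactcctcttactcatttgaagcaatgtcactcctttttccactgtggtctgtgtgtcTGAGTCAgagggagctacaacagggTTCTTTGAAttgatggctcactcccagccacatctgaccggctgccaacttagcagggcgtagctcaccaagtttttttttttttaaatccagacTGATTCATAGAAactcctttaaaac
A match is a run of letters and no evidence of binding, and binding was not measured.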

How the data were processed

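RNA from 12 hippocampal samples carried the Cy3 dye on Agilent arrays of 1 colour, per the labels' protocols. The deposited files of each array give the processed fluorescence intensity of 45018 spots on mm9. Background was subtracted by Feature Extraction 10.7.3.1 of Agilent, per the file headers; the submitters' processing notes name version 9.1. The deposited matrix holds log2 values with medians of 6.98 to 6.99 per array; its scale and direction matched the arrays, and a recomputation with normexp (offset 50) and quantile normalization differed by a median of 0.0616, so the authors' exact recipe is not known here.

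Control spots and outlier spots (46 to 106 of 43379 per array) were left out, 0 spots were saturated, repeated spots were averaged, and each array's 75th percentile was subtracted from log2. Means of the 4 groups were fitted over all 12 arrays with limma 3.58.1 (R 4.3.3, lmFit and eBayes, two-sided), tested on simulated data, with Benjamini-Hochberg over 27682 probes and a threshold of 0.05. Gene names other than those of members came through RefSeq (27479 probes by accession, 5478 by symbol, 679 by synonym), and 7538 kept the files' name.

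All members and their probes are named. From the reactive lists up to 4 other genes per list and comparison with the smallest adjusted p are named, by brightest probe, and the 4 genes closest to each Gfap probe and to Vim by correlation; 1 such gene and 1 probe sequence are not reported here. Members and lists were chosen with earlier results of these data known. As alternatives the scaling, the background correction, the filter, the deposited matrix, the arrays fitted, blocks by slide and by replicate number, moderation, array weights and the threshold were changed, each array was left out and the other saline group was used.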

Additional observations from a re-analysis of the deposited data

Results flagged for a closer look

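For 16 of the 17 probes the LPS response at 24 h differed from that at 4 h in the test of the difference itself (limma, adjusted p under 0.05), where 65.9% of all probes did. As 24 h minus 4 h in log2 units, the filament probes differed by -0.49 ± 0.16 (Gfap A_51_P395056, adjusted p = 0.0203), 1.43 ± 0.07 (Gfap A_52_P52303), 0.44 ± 0.10 (Gfap A_52_P540991, adjusted p = 0.00261) and 1.24 ± 0.06 (Vim). Among the membrane proteins Cd44 A_52_P229536 differed by -0.23 ± 0.06 (adjusted p = 0.00473) and S1pr3 by 1.05 ± 0.12 and 0.95 ± 0.07 on its 2 probes. Emp1 differed by 1.16 ± 0.09, and Cd109 by 1.44 ± 0.09 on A_51_P349546 and 1.99 ± 0.24 on A_52_P8587. The Aspg probes differed by 0.95 ± 0.09 (A_51_P402225) and 1.36 ± 0.05 (A_52_P338956), S100a10 by 0.37 ± 0.07 and Srgn by 0.30 ± 0.09 (adjusted p = 0.0124). Steap4 gave -2.24 ± 0.36 (A_51_P143893, adjusted p = 0.000333) and -1.57 ± 0.51 (A_52_P182919, adjusted p = 0.0205), but both rest on saline signals below background. Of these probes, those with a call at each time and opposite signs were Gfap A_52_P52303, Vim, Aspg A_52_P338956 and Emp1.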

How the results depend on the processing

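Over all alternatives 569 recomputed values of single probes, genes or lists kept their side of the threshold, and their direction where they passed it. Another 31 came to pass it, 11 no longer passed it, and 17 with a call before or after the change reversed their sign. In addition 4 counts of list genes and 6 counts of member probes or pairs moved by over 1.5 times. Uncalled values could change sign too: with median scaling Gfap A_52_P540991 at 4 h and S100a10 at 24 h both stood at -0.03, uncalled. The 17 changes of sign with a call all came from exchanging the saline groups, which crosses scan days. At 4 h this gave 0.73 (Gfap A_52_P52303), 0.45 (Vim), 0.63 and 0.70 (S1pr3), 0.31 and 1.76 (Aspg), 1.69 (Emp1), 0.24 (S100a10), 1.25 and 1.19 (Cd109), and 17 called probes in place of 11. At 24 h it gave -1.31 (Gfap A_52_P52303), -0.34 (Vim), -1.85 (Aspg A_52_P338956), -1.12 (Emp1), -0.46 (S100a10), -0.46 (Srgn) and -0.017 (Cd109 A_52_P8587). Leaving out each array in turn gave 11 to 12 called probes at 4 h, 15 to 16 at 24 h, 16 to 16 for the difference and 13 to 14 between the saline groups. Unequal probe pairs were then 3 to 4 at 4 h and 0 to 2 at 24 h, with 2 without LPS 24 h replicate 3 and 1 without saline 24 h replicate 1. At 24 h they numbered 3 in the deposited matrix, 1 without a filter and 2 with array weights, in place of 0, and the cause was not tested.

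With the replicate number as a block 13 probes were called at 4 h, 15 at 24 h, 16 for the difference and 13 between the saline groups. Same-numbered arrays had correlated deviations of 0.08, 0.17 and -0.15 at 4 h and 0.03, 0.08 and 0.07 at 24 h. At 24 h each array correlated best with its own number, but these arrays also shared a slide, so number and slide cannot be told apart. At 4 h the arrays of 1 slide had unlike numbers and gave 0.25, -0.05 and 0.17. The numbers are not taken as pairs. The slide block gave 12 and 15 calls. Over all probes normexp called 4535 higher and 7448 lower at 4 h in place of 8757 and 10902, and 2182 higher and 1918 lower at 24 h in place of 5754 and 5793; Emp1 at 4 h (adjusted p = 0.0709) and Cd109 A_52_P8587 at 24 h (0.63, adjusted p = 0.0561) then missed the threshold. Median scaling shifted the median of all probes to -0.25 at 4 h and -0.10 at 24 h, with 6605 higher and 13556 lower and 3836 higher and 8996 lower; of the member probes 6 were then higher and 10 lower at 4 h and 15 higher and 0 lower at 24 h. Probes near background, such as those of Steap4, are those whose size signal over background limits most.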
